A study of Mus musculus with 2 samples.

Results

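The genes described here are 32 transcripts of the oligodendrocyte lineage, the glial cells that wrap axons of the central nervous system in myelin. They were chosen by name, with earlier results of these data known, so the shares of all genes set beside their counts are a description. Of the 32, 22 are genes of the mature, myelin-forming cell and 2 of newly formed oligodendrocytes. Another 4 are transcription factors of the lineage, 2 are genes of the precursor cell and 2 are genes of the contact between myelin and axon. All 32 were found among the 21442 genes with a measured probe, 30 of them by their symbol or a named older symbol in the array design and 2, Ermn and Lpar1, through another older symbol. On every one of the 4 arrays the brightest probe of each gene was well above background, so the counts below are over all 32.

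The mice had received bezafibrate, a lipid-lowering fibrate that is a ligand of PPAR nuclear receptors, or were controls, and hypothalamus was taken at ZT10 and ZT22, zeitgeber times in hours after lights on. The mice were 8 weeks old when a run-in of 2 weeks on normal feed began, which was followed by 2 weeks with 0.5% bezafibrate in the feed and then 5 weeks of normal feed. The labels do not settle at which stage of this schedule the tissue was taken, and they describe no separate feed for the controls; strain and sex are not given in the sources used here. The tissue was a square block of brain that held the hypothalamus, not the dissected nucleus alone, and equal amounts of RNA from 4 mice of a group were pooled for each array. The 4 groups were therefore control at ZT10, bezafibrate at ZT10, control at ZT22 and bezafibrate at ZT22, with 1 pool and 1 array each.

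Oligodendrocytes arise from dividing precursors that carry the PDGF receptor alpha, pass through a newly formed stage and then switch on the proteins and galactolipids of the myelin sheath. Olig1, Olig2, Sox10 and Nkx2-2 are transcription factors that specify the lineage and drive this switch, and Sox10 also acts directly on myelin genes. Many myelin transcripts are confined to oligodendrocytes in the brain, whereas transferrin, carbonic anhydrase, autotaxin and some contact proteins are also made by neurons, astrocytes, or choroid plexus epithelium.

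Values are relative signals: the scanner's processed signal of a gene's brightest probe divided by the 75th percentile of the same array, so that 1 stands for that percentile. Since probes differ in brightness, a gene's values were compared between arrays and not with those of another gene. With no replicates, pairs of arrays are compared without p-values. Errors after ± are those the scanner software assigns to the spots, combined for the log2 ratio and close to 0.20 for these genes; variation among mice or pools is not part of them. Genes are counted, as a description, when at least 20% lower or 25% higher (the same size on a log scale), and when past 1.5-fold. The 75th percentile lay between 893 and 1050 units, 68.7% to 74.6% of features were well above background, and no feature was saturated. By the file headers the arrays shared 1 slide, with the control pools at positions 1 and 2 and the bezafibrate pools at positions 3 and 4, so diet and slide side cannot be told apart. In RNA from whole tissue, fewer cells of a type and less RNA per cell cannot be told apart either.

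At ZT22 the bezafibrate pool had lower signals than the control pool for 30 of the 32 genes, and at ZT10 for 17 of 32. The median log2 ratio of bezafibrate over control was -0.28 at ZT22 and -0.02 at ZT10, while the median of all genes above background on both arrays was 0.01 at each time. At ZT22, 10 genes were at least 20% lower and 1, Enpp2, was at least 25% higher. Among all genes, 5.18% were lower by that size at ZT22, 4.58% were higher by it, and 47.8% were lower by any amount. At ZT10, 1 of 32 (Mog) was lower by 20%, against 5.0% of all genes. None was higher by 25% at ZT10, a size passed by 2.98% of all genes, and 47.3% of all genes were lower by any amount. None of the 32 reached 1.5-fold at either time, a size passed downwards by 1.38% of all genes at ZT10 and 1.90% at ZT22. The differences were thus small per gene and spread over most of the list at ZT22. The ratio was larger in size than the scanner error for 20 genes at ZT22 (19 lower) and for 3 at ZT10, and larger than 2 errors for 3 genes at ZT22 and for none at ZT10.

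**Figure D1:**
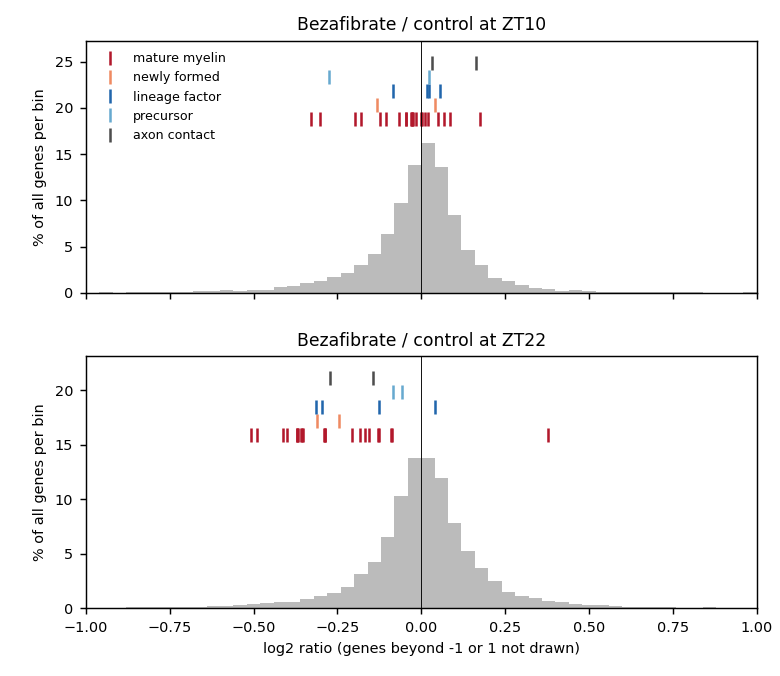
Log2 ratios of bezafibrate over control at ZT10 (top) and ZT22 (bottom); grey bars give the percentage of all genes above background on both arrays in each bin, and coloured ticks are the 32 genes by role, whose height carries no value. At ZT22 the ticks lie left of 0 except for Enpp2 and Nkx2-2, and at ZT10 they lie on both sides.

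Large ratios were rarer among bright genes as a whole. Of the 26 genes whose signal averaged 1000 units or more over the arrays, 7 were at least 20% lower at ZT22, against 0.705% of all genes of that brightness. For the 12 genes with at least 10000 units the median at ZT22 was -0.19, closer to 0 than the median of the whole list. Across the 32 genes, brightness and the ratio at ZT22 had a Spearman rho of 0.22, given as a description since all values come from the same pair of arrays.

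The genes for structural proteins of the myelin sheath had lower signals in the bezafibrate pool at ZT22 in 11 of 11 cases. Their median was -0.36, and 6 of them were at least 20% lower. At ZT10, 5 of the 11 were lower and the median was 0.00. Mog, the immunoglobulin-like glycoprotein of the outermost myelin surface, had relative signals of 0.757 in control and 0.603 in bezafibrate mice at ZT10, and 0.670 and 0.471 at ZT22. It was below its control at both times, with log2 ratios of -0.33 ± 0.20 and -0.51 ± 0.20, and at ZT22 only 2.49% of all genes had a lower ratio. Opalin, a transmembrane glycoprotein of myelinating oligodendrocytes, read 0.556 and 0.511 at ZT10 and 0.537 and 0.382 at ZT22. Here the other 3 arrays lay close together and the bezafibrate pool of ZT22 lay below them, with a ratio of -0.12 ± 0.20 at ZT10 and -0.49 ± 0.20 at ZT22. In fold terms Mog was 1.42-fold and Opalin 1.41-fold lower at ZT22.

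Because these genes had ratios of the same sign at ZT22, the 250 bases before their start sites are shown for 4 of them, taken from RefSeq (GRCm38.p6). They are the lowest mature gene, Mog, and the next lowest 3 whose outermost window, over these 250 bases, holds the letters ACAAAG or CTTTGT, the core to which SOX factors such as Sox10 can bind; capitals mark these letters. Tspan2 has a match in an inner window alone and is not shown. The Mog window is chr17:37023399-37023648 on the minus strand and has no match. The Opalin window is chr19:41077114-41077363 on the minus strand. The Mobp window is chr9:120149492-120149741 on the plus strand. The Mag window is chr7:30914923-30915172 on the minus strand.
Mog: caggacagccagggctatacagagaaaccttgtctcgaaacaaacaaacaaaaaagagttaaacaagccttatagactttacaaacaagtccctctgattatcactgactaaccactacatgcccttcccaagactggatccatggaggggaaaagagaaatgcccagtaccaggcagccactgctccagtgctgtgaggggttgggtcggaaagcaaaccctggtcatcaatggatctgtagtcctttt
Opalin: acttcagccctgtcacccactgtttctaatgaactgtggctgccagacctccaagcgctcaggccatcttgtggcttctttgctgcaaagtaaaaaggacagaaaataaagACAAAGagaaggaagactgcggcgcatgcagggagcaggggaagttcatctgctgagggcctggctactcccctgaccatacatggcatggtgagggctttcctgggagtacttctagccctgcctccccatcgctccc
Mobp: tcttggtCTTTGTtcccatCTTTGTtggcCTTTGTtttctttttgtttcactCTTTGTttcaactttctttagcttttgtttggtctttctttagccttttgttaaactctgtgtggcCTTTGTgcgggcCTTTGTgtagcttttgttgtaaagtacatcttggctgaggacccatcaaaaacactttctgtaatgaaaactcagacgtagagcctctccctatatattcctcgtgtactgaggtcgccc
Mag: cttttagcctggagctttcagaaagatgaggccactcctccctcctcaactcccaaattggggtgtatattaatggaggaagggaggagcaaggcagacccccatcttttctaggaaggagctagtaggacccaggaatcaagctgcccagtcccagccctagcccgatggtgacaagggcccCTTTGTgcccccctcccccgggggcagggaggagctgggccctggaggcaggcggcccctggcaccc
Mobp held 6 matches, and Opalin and Mag held 1 each. Promoter windows from 250 bases before to 50 after a start were at hand for 24 of the 32 genes, in 36 windows. On either strand, ACAAAG was in a window of 8 of the 24 genes (33.3%), against 21.0% of the 27025 genes in the table. The E-box letters CANNTG were in 17 of 24 (70.8%, against 75%). The letters of a PPAR response element, AGGTCA repeated after 1 base of any kind, were in 0 of 24 (0.0481% of all genes), and the single AGGTCA, which the longer motif contains, was in 2 of 24 (8.33%, against 18.1%). These matches describe the letters of the windows, not occupied sites.

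Cldn11, the claudin of myelin tight junctions, had 5.72 in control and 6.0 in bezafibrate mice at ZT10, and 6.57 and 4.94 at ZT22. Its ratio was 0.07 ± 0.20 at ZT10 and -0.41 ± 0.20 at ZT22, with the highest value in the control pool and the lowest in the bezafibrate pool of the same time. Mobp, an abundant basic protein of compact myelin whose promoter is shown above, read 11.7 and 10.9 at ZT10 and 12.7 and 9.61 at ZT22, for ratios of -0.11 ± 0.20 and -0.40 ± 0.20. Tspan2, a tetraspanin of the oligodendrocyte membrane, was almost level on 3 arrays, at 16.7, 16.8 and 17.2, and lower at 13.4 in the bezafibrate pool of ZT22 (-0.36 ± 0.20). Ermn, a cytoskeletal protein of late oligodendrocytes, had 0.220, 0.228 and 0.239 on those same 3 arrays and 0.185 in the bezafibrate pool of ZT22 (-0.37 ± 0.21).

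Of the other structural genes, Mag, the adhesion protein of the myelin membrane facing the axon, had a ratio of -0.29 ± 0.20 at ZT22. Cnp, the cyclic nucleotide phosphodiesterase of uncompacted myelin, also had -0.29 ± 0.20, as did Mal, a proteolipid of lipid-rich membrane. These 3 were less than 20% lower, and their ZT10 ratios were -0.07, 0.02 and 0.18. Plekhb1, a membrane protein with a pleckstrin homology domain, was within the scanner error at both times, at 0.01 and -0.09.

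Mbp, the basic protein that holds the cytoplasmic faces of compact myelin together, is printed in 10 spots on each array and so can be read more closely. Its relative signal was 106 in control and 104 in bezafibrate mice at ZT10, and 109 and 99.7 at ZT22. The ratio was -0.03 at ZT10, with a standard error of 0.03 over spots, and -0.13 at ZT22, with a standard error of 0.04. Spot error was thus smaller than the ZT22 difference for this gene, although spots of an array share the same pool. By the brightest probe of each gene, Mbp showed a smaller ratio in size at ZT22 than 9 of the other 10 structural genes. Other Mbp probes read -0.46 and -0.01 at that time, so its place among them depends on the probe.

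The genes for 4 enzymes of myelin lipids behaved alike within the pools. Ugt8a makes galactosylceramide, Fa2h hydroxylates its fatty acids, Gal3st1 adds the sulfate that gives sulfatide, and Aspa splits N-acetylaspartate, a source of acetate for lipid synthesis. All 4 were at least 20% lower in the bezafibrate pool at ZT22, between -0.37 and -0.35, and their median at ZT10 was -0.03. For Gal3st1 the relative signals were 1.06 and 1.12 at ZT10 and 1.30 and 1.01 at ZT22, in control and bezafibrate mice. Aspa had 2.16 and 2.12 at ZT10, and 2.42 and 1.87 at ZT22. For all 4 genes the control pool of ZT22 was the highest array and the bezafibrate pool of ZT22 the lowest. Fa2h, for instance, read 1.13 and 1.105 at ZT10 and 1.35 and 1.05 at ZT22.

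The remaining 7 mature genes showed smaller or other ratios. Nkx6-2, a homeodomain factor of maturing oligodendrocytes, was lower in the bezafibrate pool at both times, with 17.1 and 13.9 at ZT10 and 19.5 and 16.9 at ZT22. Its ratios were -0.30 ± 0.20 and -0.21 ± 0.20, so that ZT10 held the larger one. Gpr37, a receptor that restrains oligodendrocyte differentiation, was lower by about the same amount at both times, at -0.20 and -0.18. Qdpr, which regenerates tetrahydrobiopterin, Car2, a carbonic anhydrase, the iron carrier Trf and the gap junction protein Gjb1 had ratios between -0.17 and -0.09 at ZT22 and between -0.04 and 0.00 at ZT10, all within the scanner error.

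Enpp2 (autotaxin, the enzyme that makes lysophosphatidic acid) went the other way. Its relative signal was 10.8 in control and 9.52 in bezafibrate mice at ZT10, and 12 and 15.6 at ZT22. The bezafibrate pool of ZT22 was the highest of the 4 arrays for this gene, with ratios of -0.18 ± 0.20 at ZT10 and 0.38 ± 0.20 at ZT22, and 96.7% of all genes had a lower ratio at ZT22. Choroid plexus epithelium, which also makes Enpp2, had markers that were higher in the same pool: 10 of 12 markers above background on both arrays of ZT22 were at least 25% higher at ZT22, with a median of 0.88, against -0.01 over 11 at ZT10. Ttr, the transthyretin gene that defines this epithelium, had 58.8 and 62.7 units at ZT10 and 110 and 1320 units at ZT22, in control and bezafibrate mice. The part of these cells in the Enpp2 value was not tested. Without Enpp2, Trf, Car2 and Qdpr, which other cells of the block also make, 18 of 18 mature genes were lower at ZT22, with a median of -0.35. Enpp2 was the only 1 of the 22 mature genes that was higher at ZT22, so that count was fixed by leaving it out. Trf, Car2 and Qdpr had ratios between -0.17 and -0.13, nearer 0 than the median of -0.29 over all 22, so their removal also lowered the median.

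By their brightest probes, genes of newly formed oligodendrocytes were lower in the bezafibrate pool at ZT22 by less than 20%. The second probe of each gene passed that size at ZT22, at -0.36 for Lpar1 and -0.40 for Bcas1. Lpar1, a receptor for lysophosphatidic acid, had 1.54 and 1.59 at ZT10 and 1.86 and 1.5 at ZT22, with a ratio of -0.31 ± 0.20 at ZT22. Bcas1, a protein of cells that have just begun to myelinate, had 15.2 and 13.9 at ZT10 and 13.7 and 11.5 at ZT22. The ratio of Bcas1 at ZT22 was -0.24 ± 0.20, and its 2 bezafibrate values were each below the control of the same time.

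Among the 4 lineage transcription factors, ratios at ZT22 ran from -0.31 to 0.04. Sox10 had 1.96 in control and 1.99 in bezafibrate mice at ZT10, and 2.37 and 1.93 at ZT22 (-0.30 ± 0.20). Olig2 had 1.16 and 1.17 at ZT10, and 1.54 and 1.24 at ZT22 (-0.31 ± 0.20). In both, 3 arrays were close together and the control pool of ZT22 lay above them, so the low ratio went with a high control value. Olig1, a close relative of Olig2, had a ratio of -0.12 ± 0.20, and Nkx2-2, a homeodomain factor of differentiating precursors, had 0.04 ± 0.20. Nkx2-2 was 1 of only 2 genes of the list, with Enpp2, that were not lower in the bezafibrate pool at ZT22.

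The precursor genes had ratios within the scanner error at ZT22. Pdgfra, the growth factor receptor of the precursor cell, is printed in 10 spots and read 1.54, 1.57, 1.51 and 1.46 in the order control and bezafibrate at ZT10, then control and bezafibrate at ZT22. Its ratio was 0.02 at ZT10 and -0.06 at ZT22, each with a standard error of 0.03 over spots. Cspg4, the NG2 proteoglycan, had 1.41 and 1.16 at ZT10 and 1.248 and 1.176 at ZT22. Its highest value was in the control pool of ZT10, and a second probe of the gene had a ratio of -0.05 at that time, where the brightest had -0.27 ± 0.20. Over the 6 lineage and precursor genes, 5 were lower at ZT22 by their brightest probes, none by 20%. Their median was -0.11, against -0.29 for the 22 mature genes. Dim second probes of Sox10 (-0.33, 38.5 units) and Olig2 (-0.57, 27.2 units) did pass 20%, and the second Cspg4 probe read -0.08. In the separate lists below, the medians at ZT22 were closer, at -0.14 for other mature and -0.11 for other precursor genes. The mature median minus the lineage and precursor median was -0.18 at ZT22 and -0.05 at ZT10, or -0.01 at ZT10 with the mean of all probes of a gene. Both are differences between single pools and carry no test.

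Of the contact genes, Cntn2, an adhesion protein beside the node of Ranvier, read 3.80 and 4.26 at ZT10 and 3.76 and 3.11 at ZT22. It was high in the bezafibrate pool of ZT10 and low in that of ZT22, with ratios of 0.16 ± 0.20 and -0.27 ± 0.20. Nfasc, whose glial form anchors the myelin loops and whose neuronal forms lie at the node, had 0.03 ± 0.20 and -0.14 ± 0.20.

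**Figure D2:**
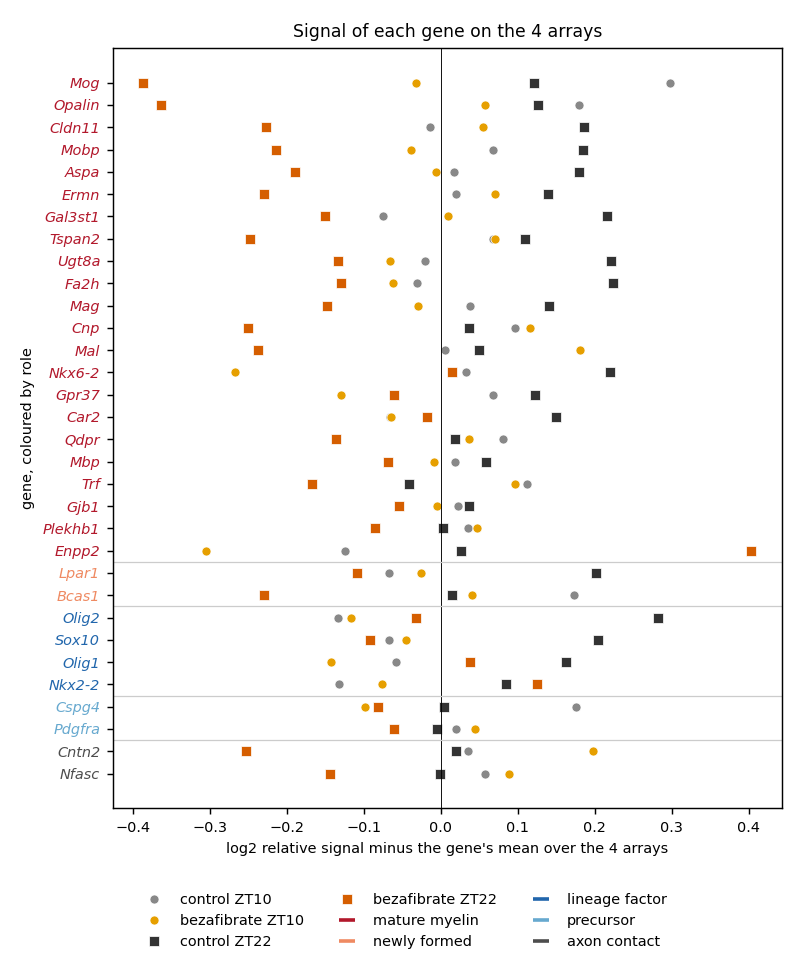
Relative signal of each gene on the 4 arrays, as log2 minus the gene's own mean over the arrays; genes are grouped and coloured by role. The bezafibrate pool of ZT22 is the leftmost point for 24 of 32 genes and the rightmost for 2, Enpp2 (at far right) and Nkx2-2.

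The array that stood apart can be read from the order of the 4 values. The bezafibrate pool of ZT22 was the lowest array for 24 of the 32 genes, against 20.6% of all genes above background on all 4 arrays. By role it was the lowest for 18 of 22 mature genes and for 2 of 6 lineage and precursor genes. The control pool of ZT22 was the highest for 18 of 32, against 27.3% of all genes, and 13 genes had both extremes at ZT22, as did 5.17% of all genes. Only 2 of 32 genes were at least 20% lower in the bezafibrate pool of ZT22 than in both the control pool of ZT22 and the bezafibrate pool of ZT10, against 1.41% of all genes. The ZT22 ratio therefore drew on a low bezafibrate value for some genes (Opalin, Tspan2, Cnp) and on a high control value for others (Olig2, Sox10, Fa2h).

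The comparison of times within a diet uses the same 4 arrays as the diet comparison and adds no independent values. In control mice 11 of 32 genes were lower at ZT22 than at ZT10, none by 20%, where 5.46% of all genes passed that size and 40.5% were lower by any amount. One gene, Olig2, was at least 25% higher in control mice at ZT22 (0.42 ± 0.20), a size passed upwards by 7.53% of all genes. In bezafibrate mice 24 of 32 were lower at ZT22, 5 of them by 20%, where 4.94% of all genes passed that size and 40.8% were lower by any amount. These 5 were Cntn2 (-0.45), Opalin (-0.42), Mal (-0.42), Cnp (-0.37) and Mog (-0.35). Enpp2 was higher at ZT22 in bezafibrate mice, at 0.71 ± 0.20, and 7.21% of all genes were at least 25% higher there. Other probes departed by over 0.3 from the brightest for Mog, Nfasc and Opalin in control mice, and for Cspg4, Mbp, Mog and Olig2 in bezafibrate mice. The Mbp probe, for instance, read -0.57 in bezafibrate mice, where the brightest read -0.06. The median over the list was 0.08 in control and -0.13 in bezafibrate mice, against 0.03 and 0.04 for all genes.

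**Figure D3:**
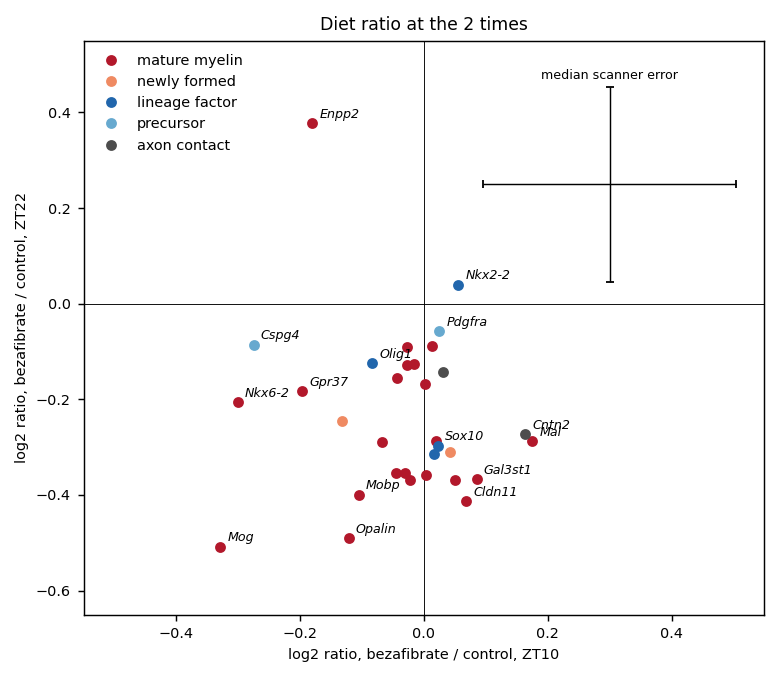
Log2 ratio of bezafibrate over control at ZT10 (horizontal) against ZT22 (vertical), 1 point per gene coloured by role; the cross gives the median scanner error of a ratio. Most points lie below the horizontal line on both sides of the vertical one, and Mog is low at both times.

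The diet ratio was lower at ZT22 than at ZT10 for 28 of the 32 genes, against 49.3% of all genes, and for 11 of them by at least 20%, a size that 6.06% of all genes passed. The median of this difference was -0.20 over the list, -0.26 over the mature genes and -0.06 over the lineage and precursor genes, against 0.00 over all genes. With 1 array in each group this difference could not be tested.

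Several genes are measured by more than 1 probe, which gives a check on the measurement but not on the pools. The 32 genes had 59 probes, of which 53 were above background on all 4 arrays, and 51 of these 53 were lower in the bezafibrate pool at ZT22. The 21 probes that were not the brightest of their gene came from 17 genes. Of these, 21 of 21 were lower at ZT22, with a median of -0.33, and 10 of 21 were lower at ZT10, with a median of 0.01. Probes of the same gene could still differ by more than 0.3. A dim second Opalin probe of 66.9 units read 0.18 at ZT10, where the brightest read -0.12, and -0.35 at ZT22. A dim Cntn2 probe of 32.3 units read -0.17 at ZT10, against 0.16 for the brightest, and -0.42 at ZT22. Both had the sign of the brightest probe at ZT22 and the opposite one at ZT10. A second Mbp probe read -0.46 at ZT22, where the brightest read -0.13 and the third read -0.01. A second Nfasc probe read -0.51, against -0.14 for the brightest. For Mog, a dim probe of 28.4 units, listed in the design under an older clone name, read 0.71 at ZT10 and -0.11 at ZT22, so that the low ZT10 ratio of Mog rested on its brightest probe. A second Pdgfra probe was above background on 2 arrays alone and is not used.

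**Figure D4:**
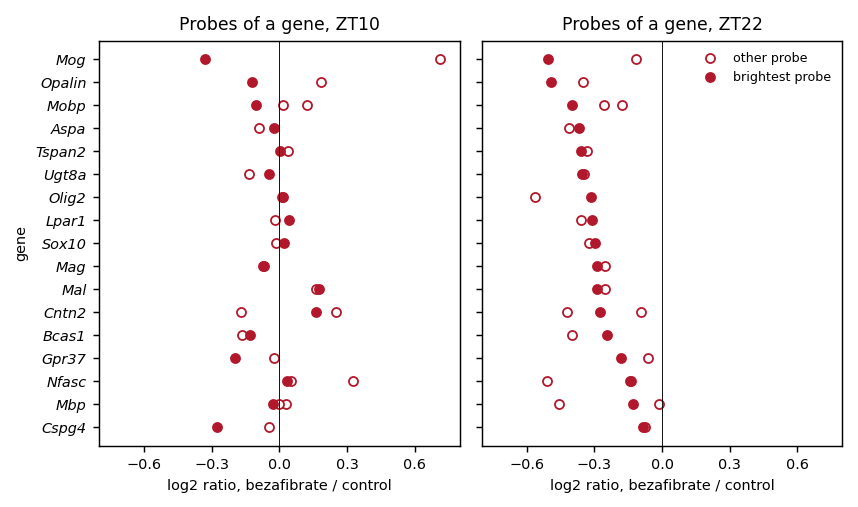
Log2 ratio of bezafibrate over control for the 17 genes with more than 1 probe above background on all 4 arrays, at ZT10 (left) and ZT22 (right); filled circles are the brightest probe of a gene and open circles its other probes. At ZT22 all points lie left of 0, and at ZT10 they lie on both sides, with a dim Mog probe at 0.71.

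Other genes of the oligodendrocyte were read from separate lists. Of 39 measured genes of mature oligodendrocytes outside the 32, 32 were lower at ZT22 and 20 at ZT10, with medians of -0.14 and -0.03. At ZT22, 6 of the 39 were at least 20% lower and 2 of these passed 1.5-fold. They were Ninj2, a cell adhesion protein, with 126 and 112 units at ZT10 and 141 and 76.1 at ZT22 in control and bezafibrate mice (-0.71 ± 0.21 at ZT22), and Sgk2, a protein kinase, with 391 and 369 units at ZT10 and 545 and 318 at ZT22 (-0.60 ± 0.20). Of 20 other precursor genes, 15 were lower at ZT22 and none by 20%, with a median of -0.11. Gpr17, a receptor of committed precursors, had -0.26 ± 0.20. Genes for enzymes and carriers that supply myelin lipids but act in many cells had a median of -0.06 at ZT22, with 11 of 14 lower. Genes for axonal proteins of the node and its borders, made by neurons, were mostly higher, with 3 of 14 lower and a median of 0.06.

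Markers of other cells in the block were set beside these values. At ZT22 the medians were -0.01 for neurons (9 of 16 lower), 0.06 for astrocytes (4 of 14), -0.02 for microglia (10 of 14) and -0.05 for endothelium and pericytes (12 of 13). Markers of neighbouring tissue moved further. Striatal markers were higher in the bezafibrate pool at ZT22, 11 of 16 by at least 25%, with a median of 0.41 against -0.05 at ZT10. Ppp1r1b, a phosphatase inhibitor of striatal projection neurons, had a ratio of 0.96 ± 0.20. Thalamic markers were lower in 13 of 14 cases at each time, with medians of -0.19 at ZT10 and -0.12 at ZT22. Anterior pituitary markers, of which hypothalamic neurons also make Pomc, were lower in 10 of 10 cases at ZT10, with a median of -0.63. At ZT22, 3 of 8 were lower, with a median of 0.10. This count leaves out Prl and Gh, which were not above background in the bezafibrate pool of ZT22. Prl had 59.2 units in control and 2.41 in bezafibrate mice at ZT22, and Gh had 63.9 and 9.25. Markers of meningeal fibroblasts had medians of -0.12 and -0.04. The summed relative signal of the 22 mature genes was 333, 325, 344 and 307 in control and bezafibrate mice at ZT10 and then at ZT22. That of 16 striatal markers was 91.5, 90.6, 84.5 and 113, and that of 13 choroid plexus markers was 7.55, 7.29, 8.82 and 11.4, in the same order. The part of unequal shares of these neighbouring tissues in the myelin values was not tested. Of 10 markers of peripheral Schwann cells, some of which (Sox2, Pou3f1) other brain cells also make, 9 were above background on all 4 arrays. At ZT22, 4 of the 9 were lower, with a median of 0.03, and at ZT10 7 of 9, with a median of -0.03. Their summed relative signal was 10.8, 11.6, 12.1 and 12.9 in the same order. A list of 6 peptide genes of hypothalamic neurons (Avp, Hcrt, Pmch, Agrp, Npy and Trh) was added after values had been seen. Of these, 6 of 6 were above background on all 4 arrays, as were 15913 of the 21442 genes with a measured probe. The same held for 16 of 16 striatal and 14 of 14 thalamic markers, so this count does not tell the hypothalamus from its neighbours.

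**Figure D5:**
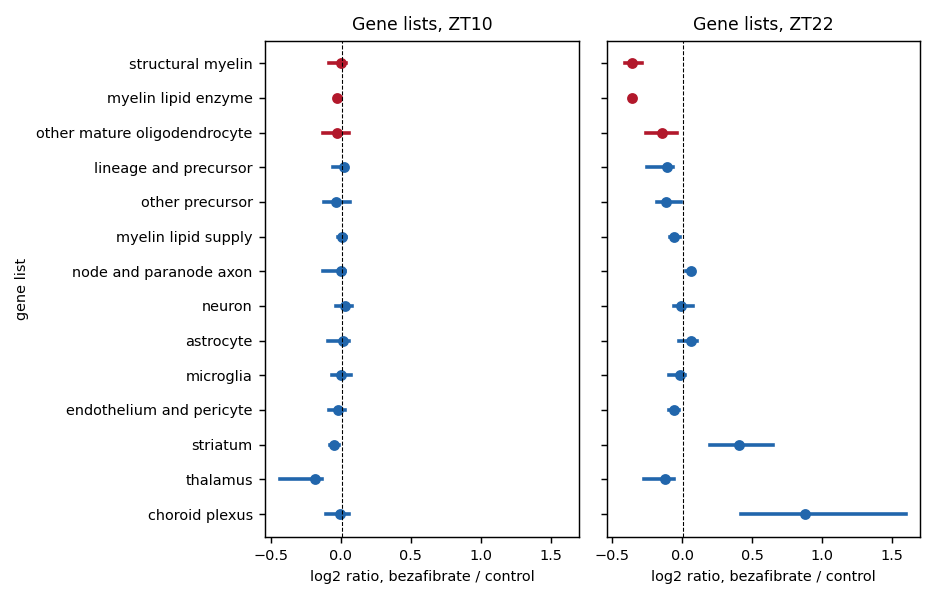
Median log2 ratio of bezafibrate over control (points) and interquartile range over genes (bars) for lists of genes at ZT10 (left) and ZT22 (right); red marks mature oligodendrocyte lists, blue the others, and the dashed line is the median of all genes. At ZT22 the structural and lipid enzyme lists lie near -0.36, the node list near 0.06, and the striatal and choroid plexus lists at 0.41 and 0.88.

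Averaged over both times, a diet effect could be fitted across the 4 arrays, on the assumption that diet acts alike at ZT10 and ZT22. In this limma fit over 17551 genes, with 1 residual degree of freedom, 0 genes passed an adjusted p of 0.05 for diet or for time, and 947 and 1876 had an unadjusted p below 0.05. The fitted diet effect was negative for 30 of the 32 genes, with a median of -0.14. For each gene this effect is the mean of its diet ratios at ZT10 and ZT22, so the count repeats the values above and adds none. The share of all fitted genes with a negative effect was not counted, for diet or for time. Mog had the largest one, at -0.42 with a standard error of 0.08 (limma, adjusted p = 0.872), and 3 of the 32 genes had an unadjusted p below 0.05. For time, 20 of 32 effects were negative, and the lowest adjusted p was 0.441 (limma), which several genes shared with Mog. The fit does not allow the diet effect to differ between the times.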

How the data were processed

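Gene expression was measured in 4 pools of mouse hypothalamus RNA on 4 one-colour (Cy3) Agilent whole-mouse-genome oligonucleotide arrays, from 400 ng of total RNA each. Per the file headers, the authors extracted spots with Feature Extraction 9.5.1.1, and the deposited processed signal is an intensity after background subtraction, not normalized between arrays. The deposited value table of the series holds, per the labels, a ratio of the bezafibrate over the control array. Set against the array files, it is linear, matches them in direction with r of 0.997 at ZT10 and 0.994 at ZT22, and differs by a constant log2 factor of -0.14 and 0.10; its column medians were 0.947 and 0.958, and it served as an alternative. The file of each array was assigned to its pool by its name, which this ratio bore out.

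Log2 values of the processed signal were used, from which the array's 75th percentile over features that are not controls was subtracted. Control spots were left out, as were 73 to 142 outlier spots on each array. Spots of a probe were averaged, and each gene was represented by the probe with the highest mean signal. Names came from the accession (22951 probes), the symbol (5850) or an older symbol (3944) in the RefSeq table of GRCm38.p6, and 8429 probes kept the name in the file, if any. Ratios were counted past 1.25-fold (20% lower or 25% higher) and 1.5-fold, beside the share among all genes well above background on both arrays. Diet and time effects were fitted with limma 3.58.1 (lmFit, eBayes, Benjamini-Hochberg adjustment) under R 4.3.3 for genes above background on at least 1 array, and the counting and the fit were tested on simulated data. The number of arrays limits the precision. All 32 genes are named, and values on every array are given for the largest and smallest ratios of a role and for some others. Other probes are named where they departed by over 0.3, and for some further genes. Of the other lists, genes past 1.5-fold are named, up to 4, and some that the rule names are not reported here; Gpr17, Ttr, Ppp1r1b, Pomc, Sox2 and Pou3f1 were chosen after their values were seen. The members and lists were chosen with earlier results of these data known. Alternatives were quantile normalization, median scaling, normexp background correction with an offset of 50 (on median spot signals, since no mean signal column was used), other rules for several probes, a floor of 100 units, the deposited ratios, and leaving out 6 genes that other cells make.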

Additional observations from a re-analysis of the deposited data

Results flagged for a closer look

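For 5 genes the diet ratio lay on opposite sides of 0 at ZT10 and ZT22 and was at least 20% lower or 25% higher at ZT22; the difference was not tested, since each group has 1 array. Cldn11 had log2 ratios of 0.07 and -0.41, a difference of -0.48. For Gal3st1 the ratios were 0.09 and -0.37, with a difference of -0.45. Ermn had 0.05 and -0.37, which differ by -0.42. In Tspan2 they were 0.00 and -0.36, and the difference was -0.36. Enpp2 alone ran the other way, from -0.18 to 0.38, a difference of 0.56. In all, 15 of the 32 genes (46.9%) had ratios of opposite sign at the 2 times, a share near the 45.4% of all genes, and the ZT10 ratio of each was smaller than the scanner error. The 5 are 15.6% of the list, and 6.32% of all genes had opposite signs with such a size at 1 time or both.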

How the results depend on the processing

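The median ratio of the list stayed between -0.35 and -0.26 at ZT22 under the 8 alternatives and between -0.11 and 0.01 at ZT10. Values moved as follows, and the cause was not tested except where the construction shows it. The count of genes at least 20% lower at ZT10 was 1, and it was 0 with normexp, 0 with the mean of probes, 0 with the median ratio of probes and 3 in the deposited ratio table. That table also gave 29 genes below 0 at ZT10 in place of 17 and 18 at least 20% lower at ZT22 in place of 10, and there the median of all genes was -0.08 at ZT10 and -0.07 at ZT22. The mature minus lineage and precursor median at ZT10, -0.05, was -0.01 with the mean of probes and with the median ratio of probes. Mog at ZT10 turned from -0.33 to 0.19 with the mean and with the median ratio of its probes, which give its dim probe equal weight. In control mice 7 genes in place of 11 were lower at ZT22 without the 6 genes of other cells, from 26 genes. When dim genes, under a mean of 100 units, were left out, 1 gene passed an adjusted p of 0.05 for diet and 1 for time in limma, none of them of this list. The limma fit compares the diets within each time, and beyond it no paired analysis was possible because each group has 1 array; leaving out an array left no residual degrees of freedom. A difference of 20% lies within 2 scanner errors of 0, as the software assigns them, so single genes near it are not resolved by that measure. Repeated spots of a probe varied less, but they share the same pool.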
